A study of Homo sapiens with 6 samples.

Results

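The insulin-like growth factor (IGF) axis was followed as 10 genes in OVCAR5 cells, an established epithelial line from human ovarian cancer. The genes were chosen by name from the deposited count table, with earlier results of these counts known, as the ligand gene IGF2, its imprinted neighbour H19, the receptors IGF1R, IGF2R and INSR, the receptor substrates IRS1 and IRS2, and the IGF-binding proteins IGFBP3, IGFBP4 and IGFBP6. All 10 were found among the 60649 rows of the table, and all 10 passed edgeR's filter on low counts, which kept 22038 genes. Stable OVCAR5 lines had been made by lentiviral transduction and puromycin selection, with a METTL3 expression construct in 3 libraries and with the empty PCDH vector in 3 control libraries, and METTL3 is the enzyme that writes N6-methyladenosine (m6A) on RNA. Both groups therefore carry a lentivirus and its drug selection. The labels call the controls parental in one place and empty-vector cells in another, name no drug treatment, and do not say whether the 3 libraries of a group came from separate cultures or transductions, so that p-values measure the spread between these libraries.

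Total counts per library ranged from 96633925 to 125463386. METTL3 itself, in CPM (counts relative to the library total, scaled with TMM factors), measured 152, 165 and 175 in the METTL3 libraries and 80.6, 68.6 and 71.6 in the vector libraries, in the order of replicates 1, 2 and 3 kept below, a log2 fold change of 1.16 (SE 0.117, adjusted p = 0.072, edgeR's quasi-likelihood test) over all 6 libraries. METTL3 was called by DESeq2 (adjusted p = 1.36e-14), by edgeR in replicates 2 and 3 (log2 fold change 1.28, SE 0.0559, adjusted p = 1.59e-08), and by edgeR without vector replicate 1 (adjusted p = 0.00708), while without any other single library the adjusted p was 0.246 to 0.904. Replicate 1 of both groups stood apart from the other 4 libraries, and 1997 genes (9.06% of those tested) differed between replicate 1 and replicates 2 and 3 at an adjusted p under 0.05. Each member is therefore also given for replicates 2 and 3. The 6 epithelial markers (EPCAM, CDH1, KRT8, KRT18, KRT19 and KRT7) summed to between 6018 and 9492 CPM in every library. Of the markers of other cell types, the 5 leukocyte markers summed to between 28.3 and 57.4 CPM, nearly all of it LYZ, the 5 endothelial ones to between 24.6 and 94.1, nearly all ENG, the 6 stromal ones to between 9.32 and 20.4, mostly COL1A1, the 6 hepatocyte ones to between 1.63 and 4.51, mostly FGB, and the 5 trophoblast ones to under 1 CPM. Of these lists, PTPRC, CD3E, KDR, DCN, ALB, AFP and CGA were at or near 0. Others were detected at low levels, with means over the 6 libraries of 1.72 CPM for PDGFRB and 0.958 for CLDN5. The means were 0.326 for CDH5, 0.236 for CD79A, 0.175 for VWF and 0.147 for COL3A1.

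As background, IGF2 is a secreted growth factor of fetal tissues that is made again in many tumours. It signals through IGF1R and through INSR, the insulin receptor, both of which are tyrosine kinases that phosphorylate IRS1 and IRS2 and thereby recruit PI3K and AKT. IGF2R has no kinase domain and removes IGF2 from the cell surface for degradation. The IGF-binding proteins hold the ligands outside the cell, and IGFBP6 prefers IGF2 to IGF1. IGF2 and the noncoding RNA H19 lie side by side on chromosome 11, where an imprinting control region bound by CTCF lets the paternal chromosome express IGF2 and the maternal one H19.

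The highest level among the genes of the axis in OVCAR5 was that of IGFBP4 (the plot of levels per length). On the TPM scale, which divides counts by the exonic length of each gene before scaling to the library, IGFBP4 had a median level of 1191 TPM over the 6 libraries (range 1043 to 1406) and stood at percentile 99.5 of the tested genes. IGFBP6 followed at 136 TPM (117 to 154). IGFBP4 made up between 87.1% and 90.9% of the summed TPM of IGFBP3, IGFBP4 and IGFBP6. The range of IRS1 (median level 91.9 TPM, 70.7 to 131) reached into that of IGFBP6, and IRS1 and IGF2R (86.9 TPM, 47.3 to 109) overlapped each other and could not be ordered beyond their spread. IGF1R (35.4 TPM, 18.9 to 42.2) and IRS2 (26.3 TPM, 9.28 to 29.4) also overlapped, whereas INSR, at 9.43 TPM (5.99 to 11.2), overlapped with IRS2 only through vector replicate 1. The imprinted pair was low, with IGF2 at 3.00 TPM (0.351 to 4.49) and H19 at 2.77 TPM (2.16 to 3.65), and these ranges overlapped as well. IGFBP3 was at 0.19 TPM (0.104 to 0.330), on 12 to 42 counts per library.

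**Figure D1:**
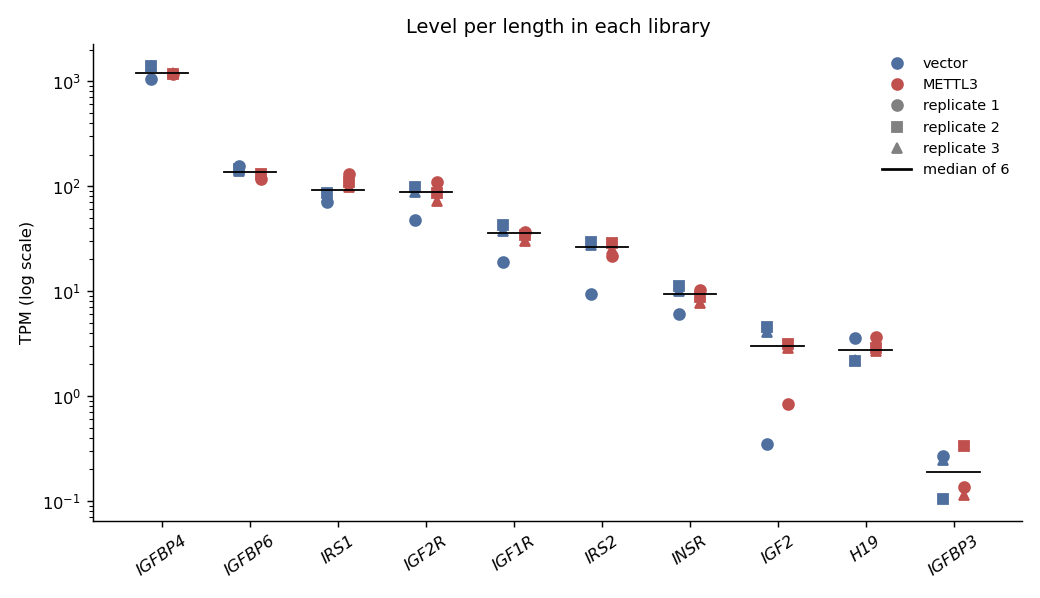
Level of each gene per length, in TPM on a log axis, in the 3 vector (blue) and 3 METTL3 (red) libraries, with the median of the 6 libraries as a line and the replicate given by the symbol. IGFBP4, at 1043 to 1406 TPM, lies above every other gene of the axis, and IGF2 in replicate 1 of both groups lies below its other 4 values.

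With all 6 libraries, none of the 10 genes differed between METTL3 and vector cells at an adjusted p under 0.05, where 0% of all tested genes did so, and DESeq2 also called 0 of the 10. An unadjusted p under 0.05 was found for 1 of the 10, IRS1, beside 8.30% of all tested genes. The groups did not overlap for 2 genes, and in replicates 2 and 3 alone they did not for 8 (54.6% of all tested genes). The 2 genes over 6 libraries were IRS1, higher with METTL3 (8.47% of tested genes had this pattern), and IGFBP6, lower with METTL3 (8.93%). Of the 10 log2 fold changes, 4 were above 0 and 6 below, with a median of -0.04 beside -0.02 over all tested genes. In replicates 2 and 3 the adjusted p was under 0.05 for 6 of the 10, of which IRS1 was higher (6.66% of all tested genes were called higher) and IGF2, IGF1R, IGF2R, INSR and IGFBP4 were lower (8.59% called lower). The median log2 difference of all 10 genes there was -0.17, beside -0.00 over all tested genes. In RNA of whole cultures, fewer cells that express a gene and less of its RNA per cell cannot be told apart. These are descriptions of genes chosen with earlier results known, and with 2 libraries a group the calls rest on the spread between 2 replicates.

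**Figure D2:**
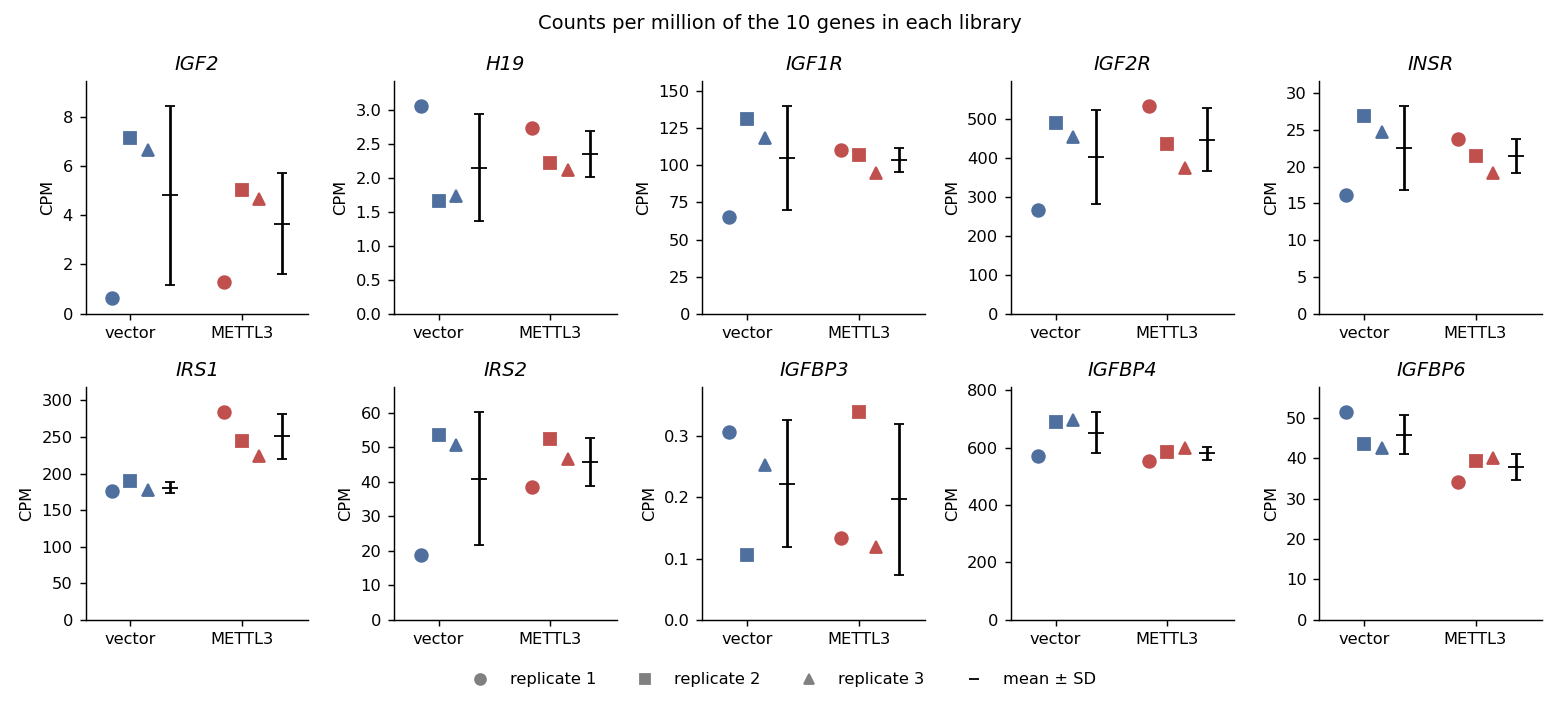
CPM of the 10 genes in each library, by group, with replicates 1, 2 and 3 as circles, squares and triangles and the mean with its SD (n = 3) in black; each vertical axis starts at 0. The circle of vector replicate 1 is the lowest value for IGF2, IGF1R, IGF2R, INSR, IRS1 and IRS2, and the METTL3 values lie above all vector values for IRS1 alone.

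The ligand IGF2 (ENSG00000167244.21, chr11:2129112-2158391 of GRCh38, minus strand) was at 1.30, 5.01 and 4.66 CPM with METTL3 and at 0.622, 7.15 and 6.65 CPM with the vector. Both replicate 1 libraries were far below the other 4, and the groups overlapped. The lowest value, of vector replicate 1, rested on 59 counts (95% Poisson interval 44.9 to 76.1, which covers counting error only), against 808 and 735 counts in vector replicates 2 and 3. That interval would be too narrow if both reads of a pair were counted. Over the 6 libraries the log2 fold change was -0.40 (SE 0.772, adjusted p = 0.892). Within replicates 2 and 3 IGF2 fell by 0.51 on the log2 scale with METTL3 (SE 0.106, adjusted p = 0.00413, edgeR), and it was lower in both numbered pairs, to 0.701 and 0.700 of the vector value. In replicate 1 the ratio had the opposite direction, 2.09, from single libraries.

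IGF2 shares exons with other annotated genes, which bears on how its reads could be counted. Other genes on the same strand, among them the readthrough gene INS-IGF2, overlap 43.2% of its exonic bases, and the antisense gene IGF2-AS and others overlap 4.66% on the opposite strand. INS-IGF2 was at 0 in all 6 libraries. IGF2-AS was at 0.133, 0.323 and 0.386 CPM with METTL3 and at 0.190, 0.407 and 0.588 CPM with the vector, again lowest in replicate 1 of both groups. How the counting treated shared bases and strand is not given in the sources used here, so the level of IGF2 is uncertain on an absolute scale. The other ligands were nearly absent from the cells' own RNA, since IGF1 had 5 counts and INS 1 count over the 6 libraries together.

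H19 (ENSG00000130600.19, chr11:1995166-2004552, minus strand), a long noncoding RNA that is spliced and polyadenylated like an mRNA, was at 2.73, 2.21 and 2.11 CPM with METTL3 and at 3.06, 1.66 and 1.73 CPM with the vector. Replicate 1 was the highest library of each group, the opposite of IGF2. The log2 fold change of METTL3 over vector was 0.13 (SE 0.274, adjusted p = 0.902) over 6 libraries and 0.35 (SE 0.165, adjusted p = 0.193) in replicates 2 and 3, so no difference was called. The IGF2 to H19 ratio in TPM was 0.231, 1.10 and 1.07 with METTL3 and 0.0986, 2.08 and 1.86 with the vector. In replicates 2 and 3 the ratio was thus lower in both METTL3 libraries, and replicate 1 had the lowest ratio of each group. Because the absolute level of IGF2 is uncertain, the ratio is compared between libraries only and not with 1. H19 carries in an exon the hairpin of miR-675, whose mature strands are shown because they are the known small RNA product of the transcript. In the RefSeq sequences (GRCh38.p14) they lie on the minus strand at chr11:1996800-1996822 and chr11:1996768-1996787, and capitals mark the seed, bases 2 to 8, which differs between the mature strands.
hsa-miR-675-5p: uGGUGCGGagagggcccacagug
hsa-miR-675-3p: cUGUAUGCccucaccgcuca
The MIR675 row itself held 0 counts in all 6 libraries, which allows up to 0.0239 to 0.0310 CPM per library, and libraries made from polyadenylated RNA do not capture mature miRNAs.

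The receptors shared one order of libraries among the vector cells. IGF1R, the main signalling receptor for IGF1 and IGF2, was at 110, 107 and 94.8 CPM with METTL3 and at 65.2, 131 and 119 CPM with the vector. INSR was at 23.8, 21.5 and 19.1 CPM with METTL3 and at 16.1, 26.9 and 24.6 CPM with the vector. IGF2R was at 533, 434 and 373 CPM with METTL3 and at 265, 488 and 453 CPM with the vector. For each receptor the lowest of the 6 values was vector replicate 1, and the groups overlapped. The log2 fold changes over 6 libraries were -0.01 for IGF1R (SE 0.235), -0.07 for INSR (SE 0.197) and 0.15 for IGF2R (SE 0.236), with adjusted p of 0.991, 0.929 and 0.86. In replicates 2 and 3, all 3 receptors fell with METTL3 (edgeR, adjusted over 22046 genes). IGF1R fell by 0.31 on the log2 scale (SE 0.0675, adjusted p = 0.0067), INSR by 0.35 (SE 0.0766, adjusted p = 0.00645) and IGF2R by 0.22 (SE 0.0695, adjusted p = 0.0475). In replicate 1 the METTL3 library was instead above the vector library, by 1.69-fold for IGF1R, 1.48-fold for INSR and 2.01-fold for IGF2R. The ratio of IGF1R to INSR in TPM varied less than either gene, from 3.15 in vector replicate 1 to 3.87 in METTL3 replicate 2, and that of IGF2R to IGF1R ran from 2.30 to 2.98.

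Because the 3 receptors and IRS1 moved in opposite directions in replicates 2 and 3, the 250 bases before their RefSeq starts are shown (GRCh38.p14), with matches on either strand to GGGCGG (the GC box) or CACGTG (the E-box) in capitals, and these motifs do not overlap each other here. The sequences run 5′ to 3′ on the strand of the gene, at chr15:98648289-98648538 (plus strand) for IGF1R, chr19:7294415-7294664 (minus) for INSR, chr6:159968832-159969081 (plus) for IGF2R and chr2:226799821-226800070 (minus) for IRS1.
IGF1R: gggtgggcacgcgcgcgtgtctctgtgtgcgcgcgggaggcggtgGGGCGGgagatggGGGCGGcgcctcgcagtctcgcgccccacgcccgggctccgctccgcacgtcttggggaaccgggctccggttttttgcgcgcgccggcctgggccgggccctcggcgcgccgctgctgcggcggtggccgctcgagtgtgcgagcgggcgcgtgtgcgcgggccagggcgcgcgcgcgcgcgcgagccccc
INSR: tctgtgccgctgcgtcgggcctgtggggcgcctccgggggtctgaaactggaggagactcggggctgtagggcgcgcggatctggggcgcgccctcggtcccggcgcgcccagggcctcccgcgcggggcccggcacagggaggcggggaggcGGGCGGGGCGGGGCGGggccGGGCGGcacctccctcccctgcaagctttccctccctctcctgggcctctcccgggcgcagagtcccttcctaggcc
IGF2R: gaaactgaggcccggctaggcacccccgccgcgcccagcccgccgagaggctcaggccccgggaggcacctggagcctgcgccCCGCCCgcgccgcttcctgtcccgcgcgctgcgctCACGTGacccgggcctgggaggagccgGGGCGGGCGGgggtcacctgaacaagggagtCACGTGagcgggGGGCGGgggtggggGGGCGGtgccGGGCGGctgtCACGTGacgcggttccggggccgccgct
IRS1: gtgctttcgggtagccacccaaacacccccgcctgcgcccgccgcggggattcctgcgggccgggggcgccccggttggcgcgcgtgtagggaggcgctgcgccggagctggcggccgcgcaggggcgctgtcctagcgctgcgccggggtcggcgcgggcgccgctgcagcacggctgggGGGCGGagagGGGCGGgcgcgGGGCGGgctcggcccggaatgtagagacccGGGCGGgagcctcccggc
The GC content of these windows was 81.2% for IGF1R, 78.4% for INSR, 79.2% for IGF2R and 80.8% for IRS1, beside a median of 58% over 35116 promoters in the table. GGGCGG was matched 2 times before IGF1R, 4 times before INSR, 6 times before IGF2R (counting overlapping matches) and 4 times before IRS1. Of the 9 genes of the axis with an entry, all but H19 held GGGCGG, as did 42.6% of all promoters. CACGTG was matched 3 times before IGF2R and in no other gene of the axis, beside 6.34% of all promoters. GTAAACA, the core of the site of FOXO transcription factors, was matched before IGFBP6 only (2.98% of all promoters). A match is a description of letters and was not tested for binding.

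IRS1, the adaptor that links the activated receptors to PI3K, was the gene of the axis that was higher with METTL3 in each of the 3 numbered pairs of libraries. It was at 284, 244 and 224 CPM with METTL3 and at 176, 190 and 177 CPM with the vector, that is 251 ± 30.4 against 181 ± 8.0 CPM (SD, n = 3 each). Every METTL3 value lay above every vector value. The log2 fold change was 0.47 (SE 0.125, unadjusted p = 0.00488, adjusted p = 0.429, edgeR's quasi-likelihood test), which did not pass over all genes. In replicates 2 and 3 IRS1 rose by 0.35 on the log2 scale (SE 0.0588, adjusted p = 0.000829), and within replicates 1, 2 and 3 the METTL3 library was at 1.62, 1.29 and 1.27 times its vector library.

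IRS2, the other substrate, known for its part in insulin action in the liver, had no such pattern. It was at 38.4, 52.3 and 46.6 CPM with METTL3 and at 18.8, 53.4 and 50.6 CPM with the vector, with the groups overlapping and vector replicate 1 far below the rest. Its log2 fold change was 0.16 (SE 0.342, adjusted p = 0.903) over 6 libraries and -0.07 (SE 0.0654, adjusted p = 0.528) in replicates 2 and 3. The ratio of IRS1 to IRS2 in TPM was 6.02, 3.81 and 3.92 with METTL3 and 7.62, 2.90 and 2.85 with the vector, so it was higher with METTL3 in replicates 2 and 3 and lower in replicate 1.

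**Figure D3:**
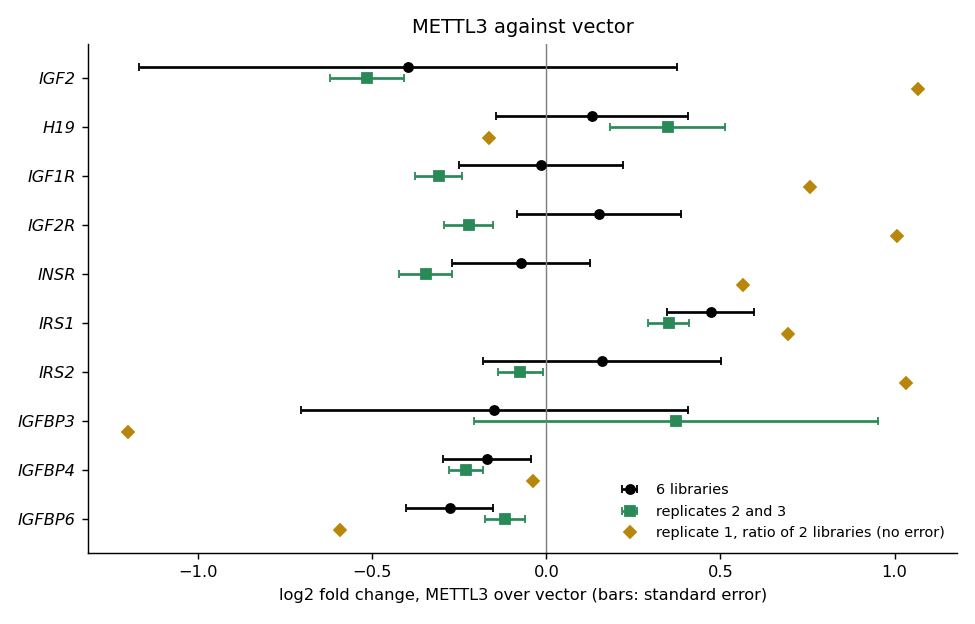
Log2 fold change of METTL3 over vector for each gene from all 6 libraries (black) and from replicates 2 and 3 (green), with standard errors, and the plain ratio of the replicate 1 libraries (gold, without error). IRS1 lies above 0 in all 3 estimates, while IGF2, IGF1R, IGF2R and INSR lie below 0 in replicates 2 and 3 and above 0 in replicate 1.

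Among the binding proteins, IGFBP4, which inhibits IGF action until it is cleaved by the protease PAPPA, was at 556, 585 and 600 CPM with METTL3 and at 570, 690 and 698 CPM with the vector. Only vector replicate 1 fell among the METTL3 values. The log2 fold change was -0.17 (SE 0.127, adjusted p = 0.704) over 6 libraries, and in replicates 2 and 3 IGFBP4 fell by 0.23 (SE 0.0495, adjusted p = 0.00539, edgeR). IGFBP6 was at 34.1, 39.4 and 40.1 CPM with METTL3 and at 51.4, 43.6 and 42.6 CPM with the vector, with no overlap, for a log2 fold change of -0.28 (SE 0.125, adjusted p = 0.609) over 6 libraries and -0.12 (SE 0.0571, adjusted p = 0.199) in replicates 2 and 3. The METTL3 library was at 0.663, 0.903 and 0.941 times its vector library in replicates 1, 2 and 3, so that the difference was widest in replicate 1. IGFBP3, which binds most circulating IGF and is a p53-induced gene, had 15, 42 and 12 counts with METTL3 and 29, 12 and 28 counts with the vector. Its levels had no order by group or replicate, and no difference was called over 6 libraries (log2 fold change -0.15, SE 0.556, adjusted p = 0.951) or in replicates 2 and 3 (0.37, SE 0.58, adjusted p = 0.749). Replicates of one group differed, with 42 counts (95% Poisson interval 30.3 to 56.8) in METTL3 replicate 2 and 12 (6.20 to 21.0) in METTL3 replicate 3. These intervals take each count as independent and ignore library totals. They would be too narrow if both reads of a pair were counted, so a difference beyond counting error was not shown.

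Replicate 1 was compared with replicates 2 and 3 with the group in the model, to show how far the axis followed that split. Replicate 1 of both groups lay below the other 4 libraries for 3 of the 10 genes, IGF2, IRS2 and IGFBP4 (15.4% of tested genes), and above them for H19 (17.0%). IGF2 was the gene of the axis that edgeR called, with a log2 difference of -2.57 (SE 0.345, adjusted p = 0.00816). H19 had a log2 difference of 0.60 (SE 0.167, adjusted p = 0.0685), and IRS2 one of -0.88 (SE 0.234, adjusted p = 0.0604).

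The same model was then fitted without METTL3 replicate 1, so that vector replicate 1 was compared with vector replicates 2 and 3. This compares a single library, assumed to vary like the rest, against a spread that comes from replicates 2 and 3 of both groups, METTL3 libraries included, and it describes that library rather than the vector cells. In it 8 of the 10 genes were called, beside 40.2% of all tested genes. IGF2 fell by 3.51 on the log2 scale (SE 0.191), IRS2 by 1.51 (SE 0.0889), IGF1R by 0.98 (SE 0.0866), IGF2R by 0.87 (SE 0.0869), INSR by 0.72 (SE 0.099) and IGFBP4 by 0.33 (SE 0.0589), whereas H19 rose by 0.81 (SE 0.189) and IGFBP6 by 0.21 (SE 0.0683). The fit without vector replicate 1 compares METTL3 replicate 1, again a single library, in the same way, with vector libraries supplying part of the spread. In it 5 of the 10 were called, beside 26.1%. IGF2 fell by 1.89 (SE 0.165), IRS2 by 0.37 (SE 0.0818) and IGFBP6 by 0.22 (SE 0.0701), while IGF2R rose by 0.40 (SE 0.0829) and IRS1 by 0.27 (SE 0.0709). IGF2 and IRS2 were thus lower in both replicate 1 libraries, and IGF2R was lower in the vector one and higher in the METTL3 one. Vector replicate 1 was the lowest of the 6 libraries for 6 of the 10 genes and METTL3 replicate 1 for 2, against 24.7% and 23.6% of all tested genes. What set replicate 1 apart is not given in the labels, and its part in the METTL3 comparison was not tested beyond leaving these libraries out.

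**Figure D4:**
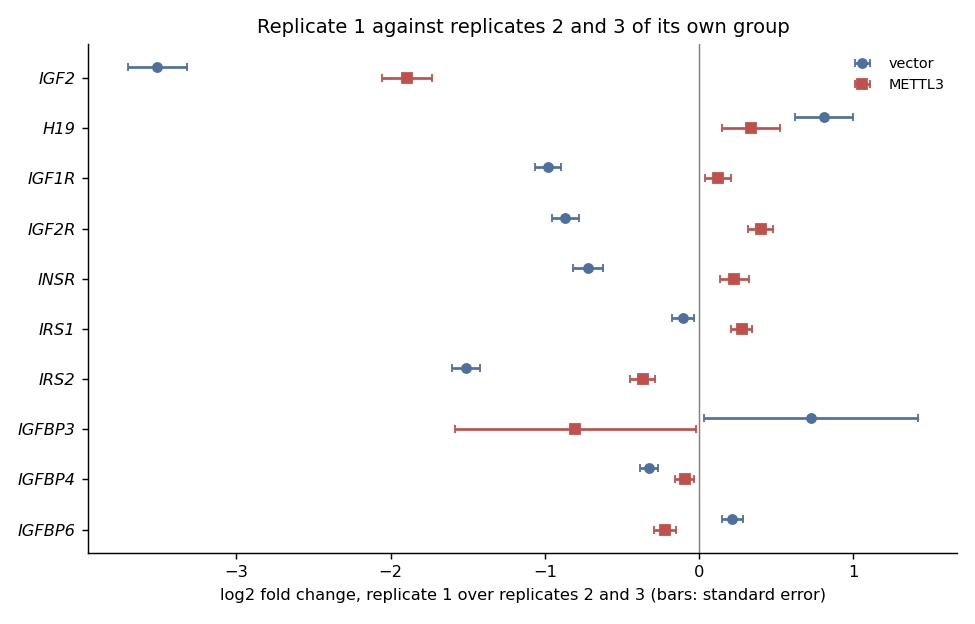
Log2 difference of replicate 1 from replicates 2 and 3 of the same group, for vector (blue) and METTL3 (red), each a single library, with standard errors from the spread of replicates 2 and 3 of both groups. IGF2 lies far below 0 in both groups, at -3.51 and -1.89, and IGF1R, IGF2R and INSR lie below 0 for the vector library and above 0 for the METTL3 library.

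For each of IGF2 and H19 the 5 genes of at least 1 CPM whose log2 CPM tracked it most closely over the 6 libraries were listed, out of 14663 ranked. For IGF2 they were GXYLT2, PPP1R18, KIFC3, CDAN1 and PLCG1, with Pearson r from 0.998 to 0.999. For H19 they were SLC27A2, TGFA, VGLL1, ENPP4 and ENSG00000286707, with r from 0.994 to 0.998. PLCG1 encodes a phospholipase acted on by receptor tyrosine kinases, and TGFA a ligand of the EGF receptor. The points share the split of replicate 1 from the rest, and 6 points ranked against so many genes give high values readily.

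The other genes of the pathway and its locus were taken whole from 9 lists of 146 genes, written by role and, like the members, with earlier results of these counts known. Of these, 123 were tested, 71 with a log2 fold change above 0 and 52 below, and 0 were called over 6 libraries. In replicates 2 and 3, 10 rose and 21 fell (6.66% and 8.59% of all tested genes). Between replicate 1 and the other replicates, 4 were higher in replicate 1 (4.25% of all tested genes) and 17 lower (4.81%).

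The other binding proteins, with the proteins that cleave them or block their cleavage, lay mostly below 0. Of 13 tested, 2 lay above 0 and 11 below, with a median log2 fold change of -0.28 (beside -0.02 over all tested genes). In replicates 2 and 3, 7 of 12 fell and none rose, beside 8.59% and 6.66% of all tested genes. IGFBP2, a secreted binding protein for IGF1 and IGF2, was at 20.6, 22.4 and 24.5 CPM with METTL3 and at 28.7, 36.1 and 33.7 CPM with the vector, without overlap. Its log2 fold change was -0.55 (SE 0.133, adjusted p = 0.4) over 6 libraries, and it fell by 0.58 in replicates 2 and 3 (SE 0.0687, adjusted p = 4.71e-05). MMP7, a secreted protease that can cut IGFBPs, had a log2 fold change of -0.93 (SE 0.34, adjusted p = 0.562) and fell by 0.73 (SE 0.0584, adjusted p = 1.36e-06) in replicates 2 and 3. STC1, a stanniocalcin that inhibits PAPPA, had one of -0.62 (SE 0.204, adjusted p = 0.53) and fell by 0.94 (SE 0.0886, adjusted p = 6.15e-06) there. Replicate 1 did not share all of these falls. IGFBP5 had the largest called fall in replicates 2 and 3, by 1.16 (SE 0.128, adjusted p = 2.43e-05, edgeR). In replicate 1 it was higher with METTL3, at 8.93 against 3.46 CPM. STC1 (9.43 against 9.19 CPM) and STC2 (84.5 against 75.5 CPM) were also higher there. IGFBP2, ADAM9, ADAM12 and MMP7 were lower with METTL3 there. The list thus held genes of opposite roles that fell in replicates 2 and 3, since IGFBP2 binds ligand, MMP7 cuts binding proteins and STC1 protects them.

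Downstream of the receptors the lists were more balanced. Of 19 adaptors and brakes 13 lay above 0 and 6 below, and in replicates 2 and 3, 2 rose and 2 fell. Over all tested genes 6.66% were called higher there and 8.59% lower, to be set beside each list here. Those that fell in replicates 2 and 3 were SOCS3, which dampens cytokine and insulin receptor signalling, by 0.25 on the log2 scale (SE 0.0551, adjusted p = 0.00667, edgeR), and the docking protein DOK1 by 0.31 (SE 0.0606, adjusted p = 0.00268). Those that rose were PTPN2, by 0.30 (SE 0.0549, adjusted p = 0.00185), and GRB14, by 0.37 (SE 0.0996, adjusted p = 0.0208). GRB10, an imprinted adaptor that inhibits IGF1R and INSR, had a log2 fold change of 0.10 in replicates 2 and 3 (SE 0.0583, adjusted p = 0.284) and was at 21.3 CPM in vector replicate 1 against 33.7 to 48.8 CPM elsewhere. Of 34 genes of PI3K, AKT and mTOR signalling, 22 lay above 0 and 12 below, and in replicates 2 and 3, 2 rose and 4 fell. EIF4EBP1, the translation repressor that mTOR switches off, was at 152, 159 and 161 CPM with METTL3 and at 172, 230 and 238 CPM with the vector, and fell by 0.55 in replicates 2 and 3 (SE 0.0517, adjusted p = 6.15e-06). TSC2, a brake on mTOR, rose by 0.22 there (SE 0.0602, adjusted p = 0.0214), and the transcription factor FOXO1 had a log2 fold change of 0.19 (SE 0.0648, adjusted p = 0.0638). Of 14 genes known as FOXO targets, 9 lay above 0 and 5 below, with 3 that rose and 2 that fell in replicates 2 and 3. Those named by the size of the fold change over 6 libraries had these values in replicates 2 and 3. ERBB3 rose by 0.49 (SE 0.0593, adjusted p = 5.96e-05, edgeR) and BCL2L11 by 0.22 (SE 0.0608, adjusted p = 0.0221), and KLF15 was at 0.37 (SE 0.134, adjusted p = 0.0789). TXNIP also rose there, by 0.37 (SE 0.0527, adjusted p = 0.00023). The genes that fell were GADD45A, by 0.47 (SE 0.06, adjusted p = 8.47e-05), and SESN3, by 0.30 (SE 0.0646, adjusted p = 0.00497).

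**Figure D5:**
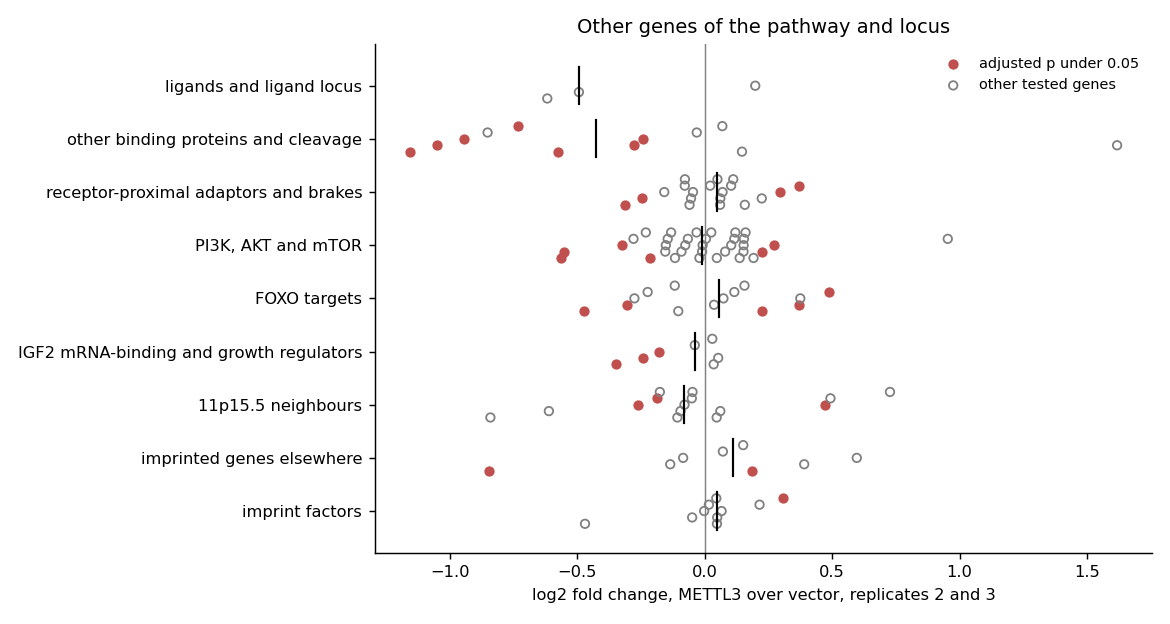
Log2 fold change of METTL3 over vector in replicates 2 and 3 for the tested genes of the 9 lists (rows), each list with its median as a black line; red points had an adjusted p under 0.05. In the row of other binding proteins and cleavage 7 of 12 points are red and all 7 lie below 0, whereas the PI3K, AKT and mTOR genes lie on both sides.

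Of the proteins that bind IGF2 mRNA or drive its growth programme 7 were tested, with 4 above 0 and 3 below. Of these, 3 fell in replicates 2 and 3, where 8.59% of all tested genes were called lower. With both groups in the fit 4 were lower in replicate 1 (4.81% of all tested genes), while IGF2BP3, PLAG1 and HMGA1 were not called. IGF2BP2, which binds IGF2 mRNA and reads m6A, was at 183, 300.1 and 294 CPM with METTL3 and at 178, 354 and 349 CPM with the vector. It fell by 0.24 in replicates 2 and 3 (SE 0.0501, adjusted p = 0.00393) and was lower in replicate 1 by a log2 difference of -0.84 (SE 0.106). IGF2BP1 fell by 0.35 (SE 0.0804, adjusted p = 0.00873) and HMGA2, a chromatin protein that raises IGF2BP2, by 0.18 (SE 0.0526, adjusted p = 0.0319) in replicates 2 and 3.

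Around IGF2 and H19 on chromosome band 11p15.5, 15 neighbours were tested, 7 above 0 and 8 below, and in replicates 2 and 3, 1 rose and 2 fell. Over all tested genes 6.66% were called higher there and 8.59% lower. SYT8 rose by 0.47 there (SE 0.125, adjusted p = 0.0191), while CTSD, the gene of cathepsin D, and KCNQ1 had log2 fold changes of 0.06 (adjusted p = 0.498) and -0.10 (adjusted p = 0.598). Of 8 imprinted genes tested elsewhere in the genome, 5 lay above 0 and 3 below. SLC38A4, an amino acid transporter, was at 3.00, 3.09 and 2.93 CPM with METTL3 and at 6.66, 5.04 and 5.80 CPM with the vector, without overlap (log2 fold change -0.96, SE 0.171, adjusted p = 0.303), and it fell by 0.85 in replicates 2 and 3 (SE 0.126, adjusted p = 0.000305). PEG10 rose by 0.19 there (SE 0.0581, adjusted p = 0.0455), and PLAGL1, a transcription factor of the imprinted gene network, had a log2 fold change of 0.15 (SE 0.079, adjusted p = 0.245). Of 10 factors that set or read imprints 9 lay above 0 and 1 below, with TET3, a methylcytosine dioxygenase, the gene that rose in replicates 2 and 3 (by 0.31, SE 0.0578, adjusted p = 0.00207). TET2 had a log2 fold change of 0.21 (adjusted p = 0.0591) and TET1 of -0.47 (adjusted p = 0.108) there. Of the ligand list, RLN2, a relaxin, alone reached 1 CPM (log2 fold change 0.20 in replicates 2 and 3, adjusted p = 0.621), and 3 of its 8 genes were tested, all with log2 fold changes below 0 over 6 libraries and 0 called.

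Epithelial markers moved with the METTL3 comparison in replicates 2 and 3. All 6 were above 0 over 6 libraries without being called. All 6 rose in replicates 2 and 3, where 6.66% of all tested genes were called higher. CDH1 (E-cadherin) was at 439, 358 and 346 CPM with METTL3 and at 201, 184 and 189 CPM with the vector. In replicate 1, EPCAM, KRT8, KRT18, KRT19 and KRT7 were instead lower with METTL3. EPCAM was there at 437 against 483 CPM and KRT7 at 541 against 659 CPM. The summed level of the 6 epithelial markers was 7506 to 8446 CPM with METTL3 and 6018 to 9492 CPM with the vector. Of the other markers named by size, EPCAM rose by 0.71 and KRT19 by 0.53 in replicates 2 and 3, and ENG, LYZ and FGB fell by 0.65, 0.92 and 0.99 there, whereas PDGFRB (-0.47, adjusted p = 0.0791) and COL1A1 (0.06, adjusted p = 0.68) were not called. No trophoblast marker reached 1 CPM. Their part in the results for the IGF axis was not tested.

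The sequence features of the transcripts were compared with those of all tested genes, as a description. The motif GGACT, the commonest form of the site at which METTL3 places m6A, occurred between 0.38 and 1.81 times per kilobase of the longest annotated transcript, with a median of 0.846 beside 0.910 over 21986 tested genes. IGFBP4 (1.81, from 4 matches) and IGFBP6 (1.70, from 2) had the most per kilobase and IGFBP3 (0.38, from 1) and IGF2 (0.538, from 3) the fewest. IRS1 was at 0.921 and IGF1R, INSR and IGF2R were at 0.736, 0.740 and 0.984. A link between the motif and the METTL3 comparison was not tested. m6A itself was not measured in these libraries. The transcripts of the axis were GC-rich, with a median of 55.2% (49.4% to 64.1%) beside 48.3%. Correcting the libraries for their GC and length trends left the same 6 members called in replicates 2 and 3. The share of all tested genes called there was 21.3% with this correction and 15.2% without it. IGFBP4 went from -0.23 (adjusted p = 0.00539, edgeR) to -0.15 (adjusted p = 0.0242) with it.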

How the data were processed

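Poly(A)-selected RNA of 6 OVCAR5 libraries was sequenced, 3 with METTL3 and 3 with the empty vector. The deposited values are raw counts per gene, made by the authors with hisat2 on hg38 and Subread, and the submitters' processing notes also name fastp and featureCounts. Their versions, the annotation and the treatment of strand are not given in the sources used here. The labels give a stranded TruSeq kit and paired-end reads, the paper's methods an NEBNext kit and single-end reads. Between 67.6% and 70.5% of counts from 1 to 20 were even, as when both mates are counted, so halved counts were also tested. Of the 60649 rows, 186 had no name of their own in GENCODE release 44 (GRCh38).

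Genes passing filterByExpr were TMM-scaled and compared in edgeR 4.0.16 (glmQLFit, robust, and glmQLFTest; R 4.3.3), with Benjamini-Hochberg adjustment over all tested genes and a threshold of 0.05. SE was derived from the F statistic and the fitted log2 fold change. CPM used TMM factors, and TPM the union of annotated exons. DESeq2 1.42.0 was an alternative, with its independent filtering set at 0.05. The functions were tested on simulated counts. Total counts were 96633925 to 125463386. Counting error is widest for IGFBP3 (12 to 42 counts), IGF2 (59 to 808) and H19 (188 to 308), and for H19 vector replicates 2 and 3 differed by less than it.

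Groups came from the library titles. Deviations of libraries 1, 2 and 3 from the mean of their group correlated between groups at 0.334, 0.120 and 0.175, each over the set minimum of 0.1. Numbers 2 and 3 crossed gave 0.205 and 0.133. Deviations cancel out within a group, so the split of replicate 1 by itself raises the values among numbers 2 and 3. That number 2 belongs with 2 and number 3 with 3 was therefore not shown. Ratios within a number follow the titles only, and the main fit had no pairing term. Pairing by number is not stated in the labels. The members, the 9 gene lists and the 6 marker lists (epithelial, stroma, endothelial, leukocyte, hepatocyte, trophoblast) were chosen with earlier results of these data known. Named were METTL3, all members, from each list the 3 largest log2 fold changes of at least 1 CPM, since none passed over 6 libraries, and the 5 genes most like IGF2 and H19. IGF1, INS, INS-IGF2, IGF2-AS, MIR675, IGFBP5, STC2, ADAM9, ADAM12, PTPN2, GRB14, TXNIP, GADD45A, SESN3, IGF2BP3, PLAG1, HMGA1 and the single markers not named by size were named outside this rule.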

Additional observations from a re-analysis of the deposited data

How the results depend on the processing

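With the replicate number as a block, 0 genes and 0 of the 10 members were called, as without it. The block turned IGF1R from -0.015 to 0.042 with no call for either, and it changed no other call. For METTL3 against vector, 280 genes were called by DESeq2, 560 without a low count filter, 1 with the GC and length trend removed, 3362 in replicates 2 and 3 and 4696 there with that trend removed (2683 higher and 2013 lower, against 1469 and 1893). Members called numbered 6 in replicates 2 and 3 and 6 there with the trend removed, members without overlap 8, and genes of the 9 lists 2 by DESeq2, 4 without a filter, 31 in replicates 2 and 3 and 48 there with the trend removed. Leaving out 1 library gave 0 to 367 genes, 0 members called, 2 to 7 without overlap and 0 to 3 list genes, with each upper value without vector replicate 1. For replicate 1 against the others, DESeq2 called 3571 genes, no filter 4220 and the trend removed 3278, with 3, 3 and 2 members, and leaving out 1 library gave 233 to 9028 genes and 1 to 8 members, the upper values without METTL3 replicate 1.

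The following signs turned. IGF1R was 0.0048 with at least 10 counts in every library and with halved counts, and IGF2R was -0.22 and -0.23 (both called, against 0.15 over 6 libraries), while the uncalled IRS2 was -0.074 and -0.015 and IGFBP3 0.37 and 0.40 in replicates 2 and 3 without and with the trend removed. For replicate 1, IGFBP3 was -0.048 with the trend removed, and IGFBP6 -0.0087 by DESeq2 and by RLE factors and -0.019 without a filter. Leaving out 1 library, METTL3 against vector ranged from -0.92 to 0.014 for IGF2, -0.27 to 0.20 for IGF1R, -0.076 to 0.34 for IGF2R, -0.27 to 0.096 for INSR, -0.18 to 0.42 for IRS2 and -0.78 to 0.15 for IGFBP3, and replicate 1 against the others from -0.98 to 0.12 for IGF1R, -0.87 to 0.40 for IGF2R, -0.72 to 0.23 for INSR, -0.10 to 0.27 for IRS1, -0.80 to 0.72 for IGFBP3 and -0.22 to 0.21 for IGFBP6. The cause was not tested. IRS1 kept its direction in every alternative run for METTL3 against vector (0.35 to 0.56), as did H19, IGFBP4, IGFBP6 and METTL3. METTL3 was also called without a filter (adjusted p = 2.64e-11) and with the trend removed (0.0309), and not by RLE, upper-quartile, halved counts, the stricter filter or the block (0.0514 to 0.0941).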
